A study of Homo sapiens with 6 samples.

Results

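10 genes of the translation machinery were compared between nascent transcription and steady-state RNA in K562 cells: the elongation factor genes EEF1A1, EEF1B2, EEF1D, EEF1G and EEF2, and TPT1, RACK1, PABPC1, NACA and BTF3. They were taken by symbol, through the transcript identifiers of the count tables, and are 10 of 37192 genes with a counted transcript that could be matched to the annotation. K562 is a human chronic myelogenous leukemia cell line, and all libraries were made from untreated cells that the study's methods place in 1 flask. PRO-seq, which maps engaged RNA polymerases, was represented by 2 libraries, and total RNA-seq after rRNA depletion by 4 libraries. P-values therefore measure only the spread between these libraries, which may be technical.

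Translation elongation factors carry the growing peptide chain forward codon by codon. eEF1A, the product of EEF1A1, delivers aminoacyl-tRNA to the ribosome, the eEF1B subunits encoded by EEF1B2, EEF1D and EEF1G form the complex that exchanges its guanine nucleotide, and eEF2 moves the ribosome along the mRNA. TPT1 encodes the translationally controlled tumor protein, RACK1 a scaffold protein of the small ribosomal subunit, PABPC1 the cytoplasmic poly(A)-binding protein, and NACA and BTF3 the α and β subunits of the nascent polypeptide-associated complex (NAC). Their mRNAs are, like those of ribosomal proteins, known as TOP mRNAs, whose first base is a C followed by an uninterrupted run of pyrimidines, and whose translation follows mTOR activity through proteins such as LARP1.

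Because the gene group is defined by this terminal oligopyrimidine start, 30 bases around each start annotated by RefSeq (GRCh38.p14) are shown, 15 before the start and 15 from it on, 5′ to 3′, with the C-led pyrimidine run in capitals. Entries were used for 8 of the 10 genes. No entry was used for EEF1D and PABPC1, so whether their annotated starts hold such a run was not examined.
EEF1A1 (chr6:73521018-73521047, minus strand): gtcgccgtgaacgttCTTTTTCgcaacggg
EEF1B2, upstream start (chr2:206159594-206159623, plus strand): gccggaagtggccccagcctcgaggccggg
EEF1B2, downstream start (chr2:206159880-206159909, plus strand): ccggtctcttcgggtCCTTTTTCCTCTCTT
EEF1G (chr11:62573877-62573906, minus strand): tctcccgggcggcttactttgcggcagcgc
EEF2 (chr19:3985449-3985478, minus strand): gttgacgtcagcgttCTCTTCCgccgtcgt
TPT1 (chr13:45341169-45341198, minus strand): agcggctgagtcggcCTTTTCCgcccgctc
RACK1 (chr5:181243892-181243921, minus strand): ggggggcttttctctCTCTCTTTCactgca
NACA (chr12:56725285-56725314, minus strand): acgctctcgctcggtCTTTCTgccgccatc
BTF3 (chr5:73498427-73498456, plus strand): tgtcacttccggcctCCCTTTagctgccat

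A start with C and at least 4 further pyrimidines was found in 7 of these 8 genes. The same start was found in 4.07% of the 35116 promoters of the table, in 6.36% of 14622 genes of counted mRNAs and in 47 of 63 cytosolic ribosomal protein genes. The runs were 6 bases long in NACA and BTF3, 7 in EEF1A1, EEF2 and TPT1, 9 in RACK1 and 16 at the downstream start of EEF1B2, which reaches past the window shown. The annotated start of EEF1G and the upstream start of EEF1B2 fall on an A, so that these letters do not hold the run in this window. The letters TATAA on the gene's strand, 40 to 20 bases before the start, were found in EEF1A1, EEF1B2 (downstream start) and EEF2, that is in 3 of 8 genes, compared with 6.39% of genes of counted mRNAs and 7 of 63 ribosomal protein genes. These are letter matches at annotated starts, and starts used in K562 cells were not measured.

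The RNA-seq libraries held 5732780 to 9002746 counts on transcription units (TUs), and the PRO-seq libraries 6993816 and 7245632. Whether reads carry molecular identifiers is not stated in these sources, so counting error may understate the error of a level. Erythroid genes such as GATA1, TAL1, KLF1, NFE2 and the γ-globin gene HBG1 were present at 79.7 to 1828 TPM in RNA-seq, whereas CD3E, MS4A1, ALB, KRT5 and COL1A1 were below 1 TPM. PTPRC, which blood cells express, was at 72.5 TPM. RNA-seq replicates 1 and 3, and replicates 2 and 4, were closer to each other (chi-square per degree of freedom 1.13 and 1.12) than the other RNA-seq pairs (1.75 to 2.13), and each pair still differed by more than sampling noise. The deposited counts are those of the longest transcript by span, and whether they were counted by strand is not stated in these sources.

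Of the 10 genes, 9 had counts in every library. All but PABPC1 ranked within the top 187 of 18964 mRNAs by RNA-seq TPM. Together the 9 genes held 2.03% to 2.09% of the matched RNA-seq counts, and 0.155% and 0.161% of those of the PRO-seq libraries. EEF1A1 alone held 1.24% to 1.27% of the RNA-seq counts. Levels were computed as TPM (transcript abundance scaled to a fixed total in each library), which divides counts by exon length in RNA-seq and by the span without 1000 bp in PRO-seq. The median of the 9 genes was 1223 TPM in RNA-seq and 465 TPM in PRO-seq, whereas the median tested mRNA was at 31.2 and 47.5 TPM. In RNA-seq each of the 9 genes lay above the median tested mRNA, and in PRO-seq NACA lay below it.

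**Figure D1:**
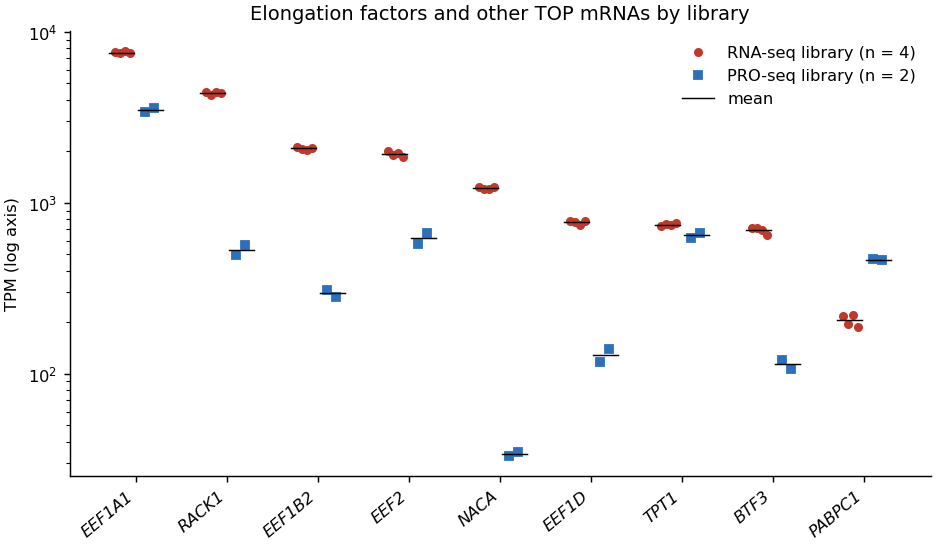
TPM on a log axis of each gene with counts, for the 4 RNA-seq libraries (circles) and the 2 PRO-seq libraries (squares), with the mean of each assay as a line. EEF1A1 is highest in both assays, and PABPC1 is the gene whose RNA-seq values lie below its PRO-seq values.

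Among the eEF1 and eEF2 genes, EEF1A1, at chr6:74225473-74230755 on the minus strand of GRCh37 (8 exons), was at 7578, 7471, 7668 and 7513 TPM in RNA-seq replicates 1 to 4, and at 3400.5 and 3578 TPM in PRO-seq. It ranked 4 of 18964 mRNAs in RNA-seq and 8 in PRO-seq. EEF1B2 (chr2:207024309-207027652, plus strand, 7 exons) was at 2111, 2075, 2045 and 2093 TPM in RNA-seq, and at 310.2 and 282 TPM in PRO-seq. EEF1B2 lay below EEF1A1 in every library of both assays. EEF1D (chr8:144663249-144681711, minus strand, 5 exons) was at 784, 767, 741 and 777 TPM in RNA-seq, and at 116 and 140.3 TPM in PRO-seq. EEF2 (chr19:3976054-3985461, minus strand, 15 exons) was at 2015, 1893, 1954 and 1845 TPM in RNA-seq, and at 577 and 661 TPM in PRO-seq. In each of these 4 genes every RNA-seq value lay above both PRO-seq values.

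EEF1G, the γ subunit of the same exchange complex, had 0 counts in all 4 RNA-seq libraries and in both PRO-seq libraries, and so no half-life. Its counted transcript (chr11:62327068-62341363, minus strand, 10 exons of 1446 bases) lies almost wholly within another counted TU of the same strand, ENSG00000255508, a protein-coding TU of 17 exons. Of its exon bases 7, or 0.484%, lie in no other counted TU. Of the trimmed span counted for PRO-seq, 7 bases, or 0.0526%, lie in no other trimmed TU. ENSG00000255508 itself held 301 RNA-seq counts and 256 PRO-seq counts over all libraries. Each library also had a row of reads that could not be assigned to 1 feature, of 278708 to 442244 counts in RNA-seq and 489754 and 518716 in PRO-seq, which does not say where the reads lie. Across all mRNAs, 303 of 362 (83.7%) with under 5% of their exon bases unshared had 0 RNA-seq counts, compared with 13.1% of the 16349 mRNAs that shared none. In addition, 97.4% of the 75-base stretches of the EEF1G transcript occur in the transcripts of other genes, 58.4% in a pseudogene. A sum of 0 over the libraries of an assay allows up to 3 counts, but over 7 unshared bases it gives no level of EEF1G mRNA.

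RACK1 (chr5:180665170-180675096, minus strand, 6 exons) was at 4416, 4290.4, 4432 and 4390.2 TPM in RNA-seq, and at 498 and 564 TPM in PRO-seq. TPT1 (chr13:45907606-45915318, minus strand, 6 exons) was at 729, 749, 741 and 759.8 TPM in RNA-seq, and at 623 and 665 TPM in PRO-seq. PRO-seq TPM of TPT1 was above that of RACK1 in both libraries, whereas RNA-seq TPM of RACK1 was above that of TPT1 in all 4. PABPC1 (chr8:101715144-101734316, minus strand, 15 exons) was at 219, 195, 219.9 and 188 TPM in RNA-seq, and at 469 and 460.7 TPM in PRO-seq. It ranked 816 in RNA-seq and 134 in PRO-seq, and its coefficient of variation over the RNA-seq libraries, 7.81%, was the highest of the 9 genes, whose others had 1.13% to 4.49%.

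For the NAC subunits, NACA (chr12:57107323-57125412, minus strand, 6 exons) was at 1237, 1210.0, 1199 and 1244 TPM in RNA-seq, and at 33.0 and 34.9 TPM in PRO-seq. BTF3 (chr5:72794267-72801492, plus strand, 6 exons) was at 711, 712, 696 and 646 TPM in RNA-seq, and at 119.9 and 107 TPM in PRO-seq. NACA was thus above BTF3 in RNA-seq and below it in PRO-seq, in every library. Beside this order stands the overlap of NACA with other TUs of its strand: 6.28% of its PRO-seq span and 63.6% of its exon bases lie in no other counted TU. The TUs it shares them with are PRIM1, with 2671 RNA-seq and 474 PRO-seq counts, and ENSG00000285625, with 0 RNA-seq and 39 PRO-seq counts.

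In the order of RNA-seq levels, EEF1D and TPT1 overlapped over the libraries, and the other neighbors did not. In the order of PRO-seq levels, TPT1 overlapped with EEF2, and EEF1D with BTF3. The ranks in RNA-seq were 4 for EEF1A1, 18 for RACK1, 57 for EEF1B2, 62 for EEF2, 106 for NACA, 167 for EEF1D, 172 for TPT1, 187 for BTF3 and 816 for PABPC1. The ranks in PRO-seq were spread wider, from 8 for EEF1A1 over 88 for TPT1 and 1043 for EEF1D to 5813 for NACA. The mRNAs nearest to the median of the 9 genes in log2 TPM over the 6 libraries, among those outside the gene group and the ribosomal proteins, were SLC25A5 (Euclidean distance 0.251), RAN (0.478), VIM (0.569), TPI1 (0.676) and HNRNPF (0.721).

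Relative RNA half-life was estimated by the RNA-seq/PRO-seq ratio of TPM, the measure that the study's methods define. The estimate assumes a steady state, and the study cautions that PRO-seq density also depends on elongation rate. Its main analyses used previously published data, whose half-life estimates it found less variable than those from the libraries used here. The ratio is given on the log2 scale with the median mRNA at 0, and has no time unit. The question of the comparison is whether the RNA level of a gene is higher or lower than its polymerase density would give for the median mRNA. The ratio was tested on the counts with edgeR's quasi-likelihood test across the 10053 TUs that exceeded 1 TPM in RNA-seq and 10 TPM in PRO-seq, with Benjamini-Hochberg adjustment. At an adjusted p under 0.05, 8 of the 9 genes lay above the median mRNA and 1 lay below, whereas 40% of all TUs tested were above and 50.4% below. Among mRNAs alone, 45.4% were above and 44.9% below. The median of the 9 genes was 3.22, and that of all mRNAs tested was 0.00. When a 2-fold difference was tested, 7 of the 9 genes were above and 0 below, compared with 21.3% and 29.8% of all TUs and 24.3% and 23.2% of mRNAs. Removing the 2-fold requirement adds TPT1 above and PABPC1 below.

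**Figure D2:**
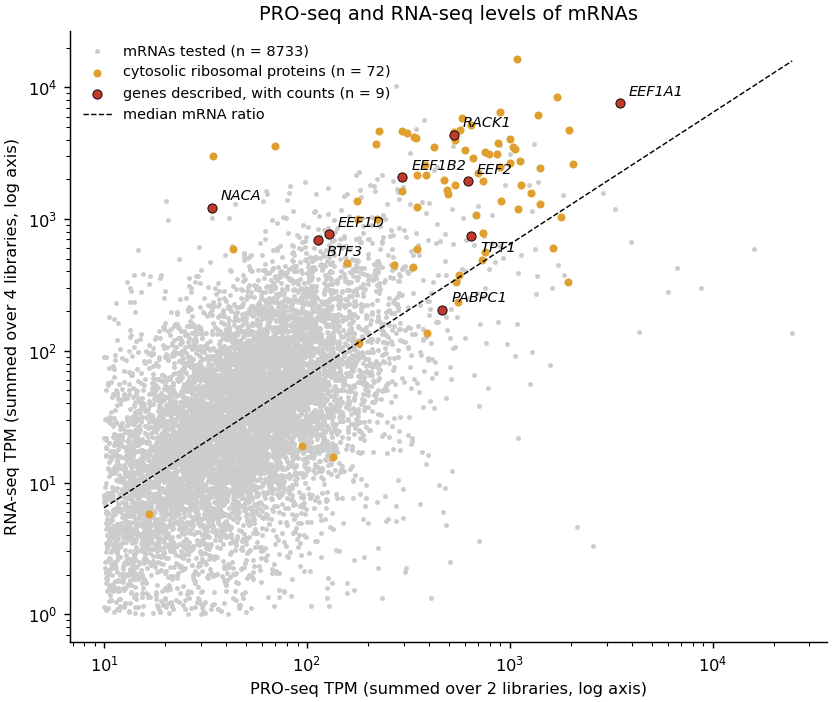
RNA-seq TPM (4 libraries summed) against PRO-seq TPM (2 libraries summed), both on log axes, for 8733 mRNAs past the thresholds, 72 cytosolic ribosomal protein genes and the 9 genes with counts. The dashed line is the median ratio, and PABPC1 is the labeled gene below it, while NACA has the largest distance above it among the labeled genes.

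NACA had the largest estimate, 5.81 ± 0.06 (SE, n = 4 RNA-seq and 2 PRO-seq libraries), or 56.0-fold above the median mRNA (edgeR, Benjamini-Hochberg adjusted p = 8.6e-35), which ranked 7 among 8733 mRNAs. In a setting chosen after seeing the data, lengths were restricted to bases in no other counted TU of the strand, with the counts unchanged. NACA was then at 2.51, still above the median mRNA. BTF3, its NAC partner, was at 3.25 ± 0.07, or 9.51-fold (edgeR, Benjamini-Hochberg adjusted p = 4.3e-27). BTF3 shares no counted bases, and its value in that setting was 3.29. The NAC subunits therefore differ in order between the settings, with NACA above BTF3 under full lengths and below it under unshared lengths.

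RACK1 was at 3.68 ± 0.04, 12.8-fold above the median mRNA (edgeR, Benjamini-Hochberg adjusted p = 7.3e-34). EEF1B2 followed at 3.45 ± 0.06, or 10.9-fold (edgeR, Benjamini-Hochberg adjusted p = 7.7e-30), and EEF1D was at 3.22 ± 0.06, or 9.31-fold (edgeR, Benjamini-Hochberg adjusted p = 5.6e-29). The nucleotide exchange subunits with counts thus stood higher than the factor they serve, since EEF1A1 was at 1.75 ± 0.03, or 3.37-fold (edgeR, Benjamini-Hochberg adjusted p = 3.2e-31). EEF2 lay between them at 2.28 ± 0.04, or 4.84-fold (edgeR, Benjamini-Hochberg adjusted p = 2.1e-28). The position of EEF1D depends on the transcript model: with the exon length of the principal transcript, 2090 bases instead of 633, it was at 1.58, below EEF1A1 at 1.84 in the same setting. The order of EEF2 and EEF1A1 also depends on the length used. With the exons of the shortest coding transcript, a setting chosen after seeing the data, EEF2 was at 1.66 and EEF1A1 at 2.17. Without length offsets, EEF2 was at 4.07 and EEF1A1 at 4.67.

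TPT1 was at 0.85 ± 0.04, or 1.80-fold (edgeR, Benjamini-Hochberg adjusted p = 2.6e-19). PABPC1 was at -0.54 ± 0.05, or 0.687 times the median mRNA (edgeR, Benjamini-Hochberg adjusted p = 4.0e-11), and ranked 5526 among 8733 mRNAs. The call for PABPC1 was lost without length offsets (-0.0056, edgeR Benjamini-Hochberg adjusted p = 0.92) and reversed without the TPM thresholds (0.12, edgeR Benjamini-Hochberg adjusted p = 0.014), where low-level TUs enter and the median of the TUs shared with the original set rose by 0.66. The other 8 genes kept a value above the median mRNA in every setting tried, although TPT1 was not called against a 2-fold difference.

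Ratios were also formed from each RNA-seq library with each PRO-seq library. These 8 pairings gave 5.75 to 5.86 for NACA, 3.57 to 3.78 for RACK1, 3.34 to 3.56 for EEF1B2 and 3.04 to 3.39 for BTF3 as well as for EEF1D. They gave 2.12 to 2.44 for EEF2, 1.71 to 1.79 for EEF1A1, 0.79 to 0.90 for TPT1 and -0.70 to -0.42 for PABPC1. The ranges of EEF1B2 and BTF3 overlapped, although EEF1B2 was higher in 8 of 8 pairings (difference 0.20 ± 0.09, SE). BTF3 was above EEF1D in 4 of 8 pairings (difference 0.03 ± 0.09), so these neighbors did not differ beyond their spread. The other neighbors in the order had separate ranges.

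**Figure D3:**
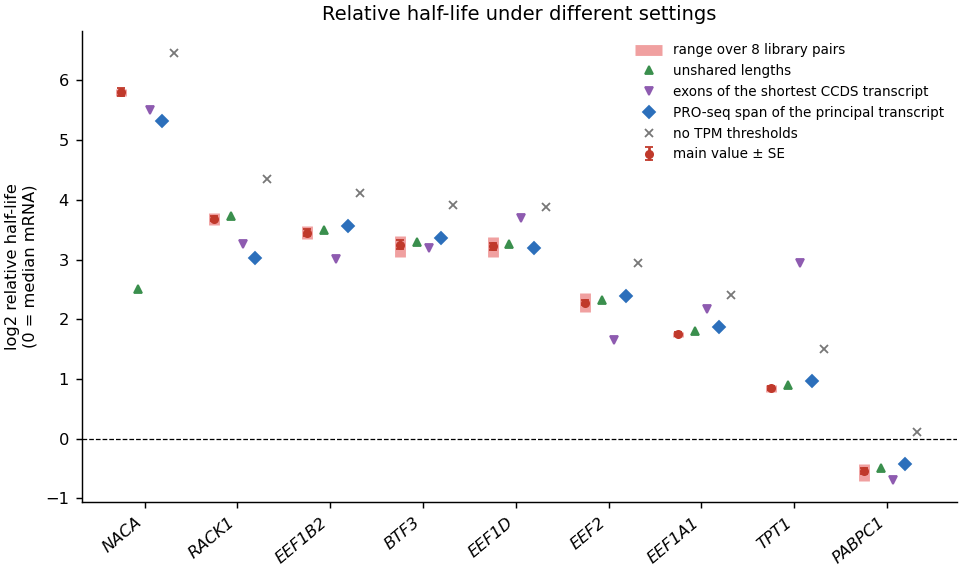
Log2 relative half-life of the 9 genes with counts, with the median mRNA at 0: main value ± SE (circles), range over the 8 pairs of 1 RNA-seq and 1 PRO-seq library (bars), and the value under 4 other settings. NACA moves to 2.51 with unshared lengths and TPT1 to 2.94 with the exons of the shortest coding transcript, while PABPC1 crosses 0 without TPM thresholds.

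The transcript that was counted bears on these values, since the longest transcript by span need not be the main one. The counted models of RACK1, EEF1D and NACA are transcripts annotated as incomplete at an mRNA end, which holds for 4.43% of all mRNAs. They begin upstream of the principal transcript of their gene. With the exon length of the principal transcript, RACK1 was at 3.03, EEF1D at 1.58 and NACA at 2.73. These lengths were 1140, 2090 and 6387 bases, compared with 685, 633 and 711 in the counted models. Which transcripts of these genes K562 cells use was not measured. With the PRO-seq length restricted to the span of the principal transcript, a setting added after seeing the data, RACK1 was at 3.03 and NACA at 5.32. In each setting with other lengths, only the length was changed. The counts of the full counted model were kept, so these values are not recounts within the shorter or longer model. The counted models of TPT1 and EEF1A1 hold more exon bases than short coding transcripts of the same genes. The exon length of TPT1 was 4548 bases, of which 692 lie in its shortest transcript with a consensus coding sequence, and for EEF1A1 the lengths were 3512 and 1714. With these shorter lengths, also chosen after seeing the data, TPT1 moved to 2.94 and EEF1A1 to 2.17, while EEF1B2 was at 3.02 and PABPC1 at -0.69. The median mRNA gained in the same setting, so that values were recentred and shared TUs moved by a median of -0.55. EEF2, whose length of 3158 bases was the same in both, was at 1.66 after this recentring. TPT1 then stood above EEF1A1 and EEF2, so the order of these 3 genes changed with the exon length used.

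Features of the transcripts that the choice of genes did not use varied among the 9 genes. Their counted transcripts had a median exon length of 1276 bases, a median span of 9408 bp and a median of 6 exons, compared with 3064 bases, 29515 bp and 9 exons for all mRNAs tested. TPT1, EEF1A1 and EEF2 had more exon bases than that median mRNA, and EEF2 and PABPC1 had 15 exons each. Of the 10 genes, 4 have small nucleolar RNA genes within their span on the same strand: EEF1B2 hosts SNORA41 and SNORD51, RACK1 hosts SNORD95 and SNORD96A, EEF2 hosts SNORD37 and TPT1 hosts SNORA31. Such genes were found in 27 of 72 cytosolic ribosomal protein genes (37.5%) and in 2.84% of 8726 genes of tested mRNAs. The half-life estimates of the 4 hosts run from 0.85 for TPT1 to 3.68 for RACK1. Over all mRNAs tested with an annotated start, the 570 with a C-led pyrimidine run had a median log2 half-life of 0.30, compared with 0.00 for the 6661 without one. Leaving out the genes described and the ribosomal proteins, the medians were 0.18 for 520 mRNAs and 0.00 for 6646. These medians are a description across mRNAs, with no test.

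Processed pseudogenes, which are intronless copies of mRNAs, were counted for several of the genes. The annotation holds 126 pseudogenes named after the 10 genes, of which 63 were counted. Those of EEF1A1 were by far the most abundant: 43 were counted, and they held 6970 RNA-seq counts and 112 PRO-seq counts in all, compared with 360601 and 7805 for EEF1A1 itself. EEF1A1P5 had 4013 RNA-seq and 50 PRO-seq counts, with 768 to 1225 in each RNA-seq library, EEF1A1P6 had 814 and 9, and EEF1A1P13 had 629 and 2. EEF1A1P11, EEF1A1P9, EEF1A1P19, EEF1A1P12, EEF1A1P16 and EEF1A1P22 had between 118 and 312 RNA-seq counts, and at most 4 PRO-seq counts each. In the counted EEF1A1 transcript, 33.7% of the 75-base stretches, the RNA-seq read length, also occur in a pseudogene transcript, and in EEF1B2 46.4% do. The corresponding share was 2.25% in BTF3 and 0 in EEF1D, EEF2, RACK1 and NACA. Reads with more than 1 alignment, 24.5% to 27.96% of the RNA-seq records and 2.73% and 2.79% of the PRO-seq records, were in a row of their own and counted for no gene. The values of EEF1A1 and EEF1B2, as of their pseudogenes, are therefore uncertain. Adding the pseudogene counts to their parents in both assays moved EEF1A1 from 1.75 to 1.76.

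Related genes were counted in the same fit. Of 79 cytosolic ribosomal proteins, the largest class of TOP mRNAs, 72 were tested: 60 were above the median mRNA, 8 below and 4 on neither side, with a median of 2.40. The highest were RPL36 at 7.08, RPL37A at 6.32 and RPL31 at 5.0, and the lowest were RPL22 at -1.67, RPL37 at -1.90 and RPL27A at -2.47. The 9 genes, with a median of 3.22 and a range from -0.54 to 5.81, lay within the range of the ribosomal proteins. As with TPT1, the counted RPL37 model is long, with 7573 exon bases. Of 10 other TOP mRNAs, 8 were tested, 6 above and 2 below, with a median of 2.47. NPM1, a nucleolar chaperone, was at 4.54, the translation initiation factor genes EIF3H at 3.19, EIF2S3 at 2.77 and EIF3L at 1.05, and at the lower end were NAP1L1, a histone chaperone, at -0.21 and EIF3F at -0.22. The counted models of NAP1L1 and EIF3F are also long, with 13159 and 7540 exon bases. HNRNPA1 had 54499 RNA-seq counts and 0 PRO-seq counts, with all 5895 bases of its PRO-seq window shared with another counted TU, and was not tested. EIF3E, also not tested, had 0 RNA-seq and 53 PRO-seq counts, with all 125312 bases of its PRO-seq window unshared.

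Other elongation factors had a median nearer to that of all mRNAs. Of 22 other elongation factors and enzymes that modify them, 16 were tested, 8 above and 8 below, with a median of 0.12. Without the TPM thresholds, 21 were tested, 14 above and 0 below, with a median of 1.22, and the 9 genes described had a median of 3.88. Of all 21100 TUs tested in that setting, 6671 were above and 7880 below. TUs shared with the original set rose by a median of 0.66 there. HBS1L, a ribosome rescue factor, was at 2.51, EIF5A, which carries hypusine and helps the ribosome past difficult peptide bonds, at 1.72, and DPH2, an enzyme of the diphthamide of eEF2, at 1.67. EEFSEC, the selenocysteine elongation factor, was at -0.54, DPH3 at -0.73 and EEF2KMT, a methyltransferase of eEF2, at -0.85. Of the 5 mitochondrial elongation factors, TUFM, the counterpart of eEF1A, was at 2.69, GFM1 at 1.57, GFM2 at 1.42, GUF1 at -0.20 and TSFM at -4.71. TSFM was near the RNA-seq threshold with 1.11 TPM, and 43.3% of its PRO-seq window is unshared.

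Among the paralogues and partners of the genes, HSPA14, a chaperone bound to ribosomes, was at 2.30, its partner DNAJC2 at 0.66 and BTF3L4, the paralogue of BTF3, at -0.24. PABPC4, a paralogue of PABPC1, was at -0.79 ± 0.04, with 162 to 169 TPM in RNA-seq and 439 and 449 TPM in PRO-seq, levels close to those of PABPC1. PABPC1L was at -1.50. The nuclear poly(A)-binding protein gene PABPN1 was at 3.28, with 21.4% of its PRO-seq window unshared, and the PABPC1 partners PAIP2 and PAIP1 were at 2.52 and 0.95. Of 20 regulators of TOP mRNAs, 17 were tested, 10 above, 6 below and 1 on neither side, with a median of 0.44. The highest were CNBP, which binds TOP mRNAs, at 2.36, EIF4EBP1, an inhibitor of the cap-binding factor eIF4E, at 1.67 and RPS6KB2, a kinase downstream of mTOR, at 1.36. The lowest were EIF4EBP2 at -0.74, TSC1, a repressor of mTOR activity, at -1.64 and TIAL1, an RNA-binding protein, at -1.76. LARP1 itself, named here after its value was seen, was at 0.05 and on neither side (edgeR, Benjamini-Hochberg adjusted p = 0.27).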

How the data were processed

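The authors deposited raw HTSeq counts per transcript for 4 RNA-seq and 2 PRO-seq libraries, after trimming with Cutadapt and HISAT2 alignment to GRCh38. Tool versions, strand setting and counting mode are not stated in these sources. For PRO-seq, the methods trim 500 bp from both ends of every TU. Of 42371 listed transcripts, 37339 were matched by identifier to GENCODE 44 lifted to GRCh37, which gave lengths, classes and coordinates, so lengths may differ from those counted on. A further 801 locus reference rows held 0 counts. Unmatched transcripts held 3.64% to 3.69% of RNA-seq counts and 2.80% or 2.81% of PRO-seq counts. Rows naming no TU (66.5% to 68.6% of RNA-seq records, 86.5% and 88.6% of PRO-seq records) were left out. TUs without PRO-seq length (84) were dropped.

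TPM was computed from counts with exon length (RNA-seq) or span minus 1000 bp (PRO-seq), and 10053 TUs, 8733 of them mRNAs, exceeded 1 TPM in RNA-seq and 10 TPM in PRO-seq. edgeR 4.0.16 (R 4.3.3, quasi-likelihood test, TMM, length offsets) tested each TU against the median mRNA, with Benjamini-Hochberg adjustment over all TUs tested. An SE is the size of the log2 value over the square root of the F statistic. In data simulated for RNA-seq against PRO-seq, it called 84.5% of the 200 TUs that were given a log2 difference of 1, and 8 others, out of 10042. The other simulated TUs had the same level per base in both assays. Dispersion was fixed and lengths were correct, so these figures do not cover wrong lengths or dispersions that vary between TUs. DESeq2 1.42.0, other normalizations, thresholds, lengths, pseudogene sums and left-out libraries were alternatives. Other lengths were used with the same counts. Depth sets the precision: the genes had 303 to 7805 summed PRO-seq counts and 6622 to 360601 RNA-seq counts.

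Shared stretches of 75 bases were sought in the GENCODE transcripts on the same strand, and pyrimidine runs and TATAA on the gene's strand of the RefSeq promoter table. The genes and lists were chosen with earlier results of these data known. Named are all 10 genes, in each list the 3 highest and 3 lowest of the genes called, pseudogenes with at least 100 RNA-seq counts, and the 5 mRNAs nearest in level.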

Additional observations from a re-analysis of the deposited data

Results flagged for a closer look

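Of the TUs that lie opposite the genes described, which no comparison uses, 4 held more RNA-seq counts, summed over the 4 libraries, than the 3 that a sum of 0 allows. TIGD5, a protein-coding gene with 1 exon opposite EEF1D, had 1039 RNA-seq counts in all (211 to 311 per library) and 170 PRO-seq counts. ENSG00000279605, also opposite EEF1D, had 15 RNA-seq counts (3 to 5 per library) and 1 PRO-seq count. ENSG00000273149, a noncoding TU of 2 exons opposite TPT1, had 473 RNA-seq counts (99 to 153 per library) and 0 PRO-seq counts. CTC-338M12.4, a noncoding TU of 4 exons opposite RACK1, had 128 RNA-seq counts and 994 PRO-seq counts (485 and 509). Whether reads were counted by strand is not stated in these sources, so reads of these TUs and of the genes they overlap cannot be told apart with certainty.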

How the results depend on the processing

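Without TPM thresholds, 0 of the genes described lay below the median mRNA, and PABPC1 reversed to 0.12. In that setting the genes below were 4 for ribosomal proteins, 0 for other TOP mRNAs, 0 for other elongation factors (14 above), 1 for mitochondrial elongation factors, 2 for TOP regulators and 4 for poly(A)-binding proteins and partners. Of all 21100 TUs tested there, 7880 were below and 6671 above. Without length offsets, and when a 2-fold difference was tested, 0 of the genes described were below, compared with 4887 and 2996 of 10053 TUs. Ribosomal proteins below the median mRNA were 5 of 72 with 500 bp removed from the PRO-seq span, and 5 of 71 with principal exon lengths. Of all TUs, 5157 of 10239 and 5029 of 9977 were below in these 2 settings. With principal exon lengths, the genes below were 1 of 8 tested for other TOP mRNAs and 0 of 4 for mitochondrial factors, of which 5 were tested in the main setting. With the exons of the shortest coding transcript they were 1 of 8 for other TOP mRNAs, 1 of 4 for mitochondrial factors and 0 of 3 for NAC paralogues. Of all TUs, 4897 of 9760 were below there. With the principal PRO-seq span the genes below were 1 of 5 for mitochondrial factors and 0 of 3 for NAC paralogues, compared with 4515 of 8894 TUs. The cause was not tested. Leaving out each library in turn, mitochondrial factors below the median mRNA numbered from 1 to 2, and each of the 9 genes kept its call. They numbered 1 of 4 tested without RNA-seq replicate 4, and 1 of 5 without PRO-seq replicate 1, where 5051 of 10050 and 4906 of 10059 TUs were below. With the replicate number as a block (replicates 1 and 2 of both assays), mitochondrial factors below numbered 1 of 4 tested. There, 8 of the genes described were above and 1 below, compared with 3927 and 4954 of 10051 TUs. Replicates 1 and 2 showed no shared deviation between the assays (correlation of deviations -0.0067 over 9962 TUs). Counting noise in single TUs can hide a shared deviation, so this does not decide whether the libraries are paired. Over all settings EEF1A1 ranged from 1.71 to 4.67, NACA from 2.51 to 6.47 and TPT1 from 0.81 to 3.49.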
